A study of Homo sapiens with 8 samples.

Results

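The ERBB family consists of the receptor tyrosine kinases EGFR, ERBB2, ERBB3 and ERBB4, and the EGF-family ligands examined with them were AREG, EREG, HBEGF, TGFA, BTC and NRG1. These 10 genes were followed after inhibition of the long noncoding RNA UCA1 in OAW42-R cells. Their probes were all non-control probes whose RefSeq transcript maps to one of the 10 symbols, which gave 18 of the 58201 different probes of the array (9 for the 4 receptors, 9 for the 6 ligands), against 22439 gene symbols on the array. EGFR was included as the reference member of the family. Of the 18 probes, 10 probes of 6 genes were bright enough to be tested, among 19048 tested probes in all.

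OAW42-R is a cisplatin-resistant line obtained by repeated cisplatin exposure of the serous ovarian cancer line OAW42, and it is a single line. Cells of both conditions were grown in medium with serum and recombinant insulin. Control cells (sictrl, 4 arrays) received the Lincode nontargeting siRNA pool, and treated cells (siUCA1, 4 arrays) received siRNAs number 2 and number 4 together, which target the short and the long isoform of UCA1. The siRNA concentration was 20 nM in both conditions, and the labels put RNA extraction at 24 h after transfection, whereas the methods of the study give a later time. Each condition has replicates with the names A1, M2, A2 and A3, and according to the methods they come from separate experiments. No cisplatin is mentioned for these cells. In such a bulk RNA measurement, fewer cells of a kind and less RNA per cell cannot be told apart.

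ERBB receptors signal as pairs. Ligand binding opens the extracellular part of EGFR, ERBB3 or ERBB4 and lets receptors dimerize, after which the kinase of one receptor phosphorylates the tail of its partner. ERBB2 has no known ligand and is the preferred partner of the others, while ERBB3 has a very weak kinase and signals mainly through ERBB2 or EGFR, with strong coupling to PI3K. AREG, TGFA and EGF bind EGFR, HBEGF, BTC and EREG bind EGFR and ERBB4, and the neuregulin NRG1 binds ERBB3 and ERBB4. The ligands are made as membrane proteins that are released by ADAM proteases. In ovarian carcinoma, the family is known for ERBB2 amplification in a minority of tumors and for NRG1 to ERBB3 loops.

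The ligand genes AREG, EREG and BTC lie beside each other on chromosome 4, in the order EPGN, EREG, AREG and BTC with no other protein-coding gene between them in the RefSeq table of GRCh38.p14. Upstream sequence was found in the RefSeq promoter table for 8 of the 10 genes. The 100 bases before the annotated start are shown for the 3 chromosome 4 ligands, which were not detected on any array, for HBEGF, which was not well above background in siUCA1, for ERBB4, which was higher in siUCA1, and for its partner ERBB2. Sequences run 5′ to 3′ on the strand of the gene, and capitals mark exact matches on either strand to 5 motifs. These were the TATA box (TATAAA), the cAMP response element (TGACGTCA), the CCAAT box (named by its letters), the GC box (GGGCGG, of which neighboring matches may overlap) and the AP-1 site (TGANTCA, which cannot match inside the cAMP response element).
AREG, chr4:74445036-74445135, plus strand: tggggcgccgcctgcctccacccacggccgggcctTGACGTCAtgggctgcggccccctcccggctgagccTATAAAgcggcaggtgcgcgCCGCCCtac
EREG, chr4:74365045-74365144, plus strand: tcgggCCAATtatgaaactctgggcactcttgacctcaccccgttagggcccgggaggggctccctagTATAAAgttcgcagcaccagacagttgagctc
BTC, chr4:74794524-74794623, minus strand: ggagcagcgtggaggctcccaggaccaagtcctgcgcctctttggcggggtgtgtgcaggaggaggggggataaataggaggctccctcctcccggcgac
HBEGF, chr5:140346604-140346703, minus strand: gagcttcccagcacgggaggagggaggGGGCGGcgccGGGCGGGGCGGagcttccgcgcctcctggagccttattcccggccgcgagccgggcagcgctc
ERBB2, chr17:39687994-39688093, plus strand: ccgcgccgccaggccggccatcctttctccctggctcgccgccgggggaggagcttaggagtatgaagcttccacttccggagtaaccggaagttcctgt
ERBB4, chr2:212538803-212538902, minus strand: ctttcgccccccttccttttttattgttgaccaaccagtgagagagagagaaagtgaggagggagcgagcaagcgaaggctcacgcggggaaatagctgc

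Within the 250 bases before the start, of the 6 promoters shown TATAAA was found at AREG, beginning 29 bases before the start, and at EREG, beginning 32 bases before it, and 3763 of all 35116 promoters of the table hold this motif. TGACGTCA was found at AREG only among these members, 65 bases before the start, and in 1.65% of all promoters. GGGCGG occurred 5 times at HBEGF and at least once in 42.6% of all promoters. Of the 6 promoters shown, that of HBEGF had the highest G and C content (76.4%, higher than 91.9% of all promoters) and that of ERBB4 the lowest (57.2%). CCAAT is held by 32% of promoters and TGANTCA by 6.57%. These matches describe the letters of the sequence and no factor binding was measured.

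The value of a probe is its log2 intensity relative to the 75th percentile of its array, so that 0 is that percentile, and values of different probes are not compared because each probe binds its target with its own strength. Differences are siUCA1 minus sictrl on this log2 scale. They were tested with limma over all 19048 probes, and a probe was called changed at a Benjamini-Hochberg adjusted p under 0.05. All 8 arrays lay on 1 slide and were scanned on 1 day. Each array held 60901 non-control spots, with 20858 to 24039 well above background and 0 saturated, and the number of arrays limits the precision. The brightness trend that Feature Extraction removed over the array surface was 0.321 (root mean square) on sictrl A3 and 0.287 on siUCA1 A1, against 0.0737 to 0.0943 on the other 6 arrays, and results whose call changes without these arrays are given with and without them. UCA1 itself fell by 5.04 on the first probe and fell by 4.76 on the other (adjusted p = 0.000116 and 2.36e-05, limma).

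The array carried 13 ovarian carcinoma markers fixed for the check of the cell type, and 10 of them were bright enough to test, among them PAX8, EPCAM, KRT7 and KRT19. The defining markers WT1, MUC16 and MSLN were not detected on any array. SOX17, a transcription factor of the Mullerian lineage, rose by 0.61 (adjusted p = 0.00664, limma). Of 9 markers of leukocytes, fibroblasts and endothelium, 2 were bright enough to test. CD14 rose by 0.70 (adjusted p = 0.0481, limma, called in 1 of 8 fits without 1 array, and 0.64 with adjusted p = 0.0734 without both sictrl A3 and siUCA1 A1) and VWF differed by -0.08, while COL3A1, DCN, LUM and CDH5 were not detected on any array. The other 3 markers were detected on some arrays and were too dim to test. COL1A1, a collagen of fibroblasts, was detected on 2 sictrl and 3 siUCA1 arrays, with mean levels of -3.18 ± 0.52 and -2.30 ± 0.19 (SD, n = 4), and the conditions overlapped. PTPRC, the leukocyte antigen CD45, has 5 probes, and 3 of them were detected on 1 or 2 siUCA1 arrays each and on 0 sictrl arrays. All 5 had the higher mean in siUCA1, with overlapping conditions, from -4.93 ± 0.29 against -3.61 ± 0.72 to -5.27 ± 0.18 against -5.06 ± 0.44 (SD, n = 4). With no detection filter, the median difference of all 58201 probes was also above 0, at 0.14, against 0.03 over the tested probes. The count of PTPRC probes is therefore a description only. PECAM1, an adhesion molecule of endothelium, has 3 probes. A first was detected on siUCA1 A3 alone, at -0.63 where the other 7 arrays lay between -5.09 and -4.22, a second on sictrl A1 alone, at -2.43, and the third on no array. Between 2 and 5 of the 17 probes of these 9 markers were detected on an array. The summed level of all 17 probes lay between 0.92 and 1.20 on the sictrl arrays and between 1.42 and 1.65 on the siUCA1 arrays, and its part in the results below was not tested.

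Of the 10 tested probes of the family, 3 were called, where 11.5% of all tested probes were. This count cannot be read as an excess, because ERBB3 NM_001982 and EGFR NM_201282 passed the detection filter only through the condition in which they were high. Among probes detected on all 8 arrays, 1 of 8 family probes (ERBB4) was called, against 12.2% of all 17302 such probes. ERBB3 (NM_001982) and ERBB4 were higher in siUCA1, against 5.58% of all tested probes higher, and 1 probe of the reference gene EGFR (NM_201282) was lower, against 5.9% lower. Without EGFR, 2 of 7 tested probes were called, both upward. The 4 arrays of one condition lay entirely above the 4 of the other for 4 of the 10 probes, against 20.7% of all tested probes. The median absolute log2 difference was 0.34 over the 10 probes and 0.21 over all tested probes. With so few probes, these shares are a description only. Among all called probes 48.6% were higher in siUCA1, and with scaling to the median of each array 20% were, with 646 called in place of 2186 and none of the family. That scaling moved the median difference of all tested probes from 0.03 to -0.07, and it moved each probe of the family by the same amount.

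**Figure D1:**
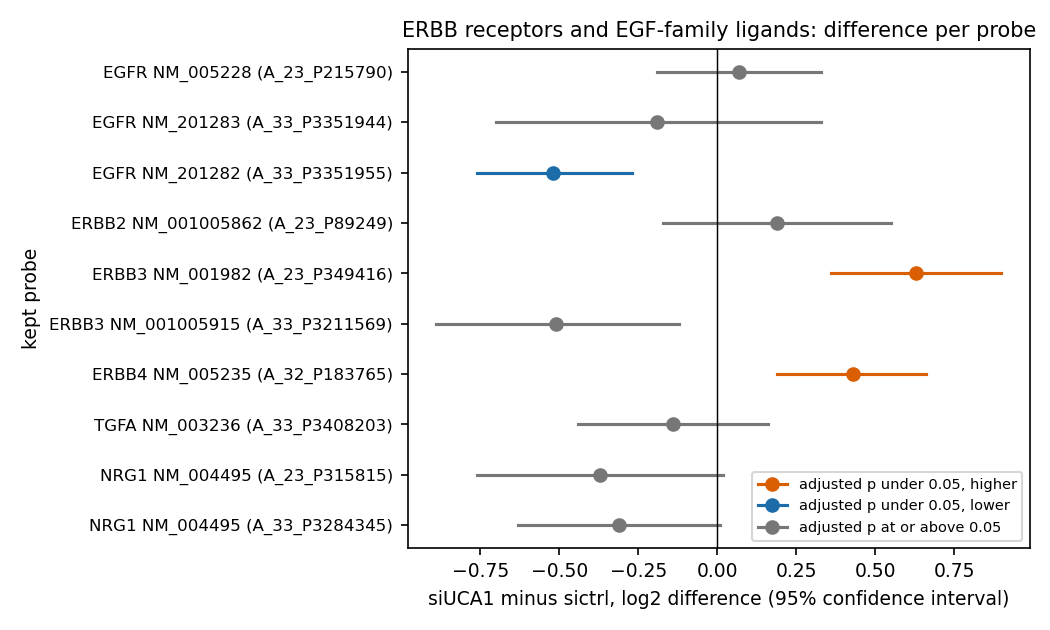
Difference between siUCA1 and sictrl for the 10 tested probes of the family. Points are log2 differences from limma and lines their 95% confidence intervals (4 arrays per condition). ERBB3 NM_001982 (0.63) and ERBB4 (0.43) lie to the right of 0 and EGFR NM_201282 (-0.52) to the left, and these 3 probes had an adjusted p under 0.05. Of them, ERBB3 NM_001982 and EGFR NM_201282 were tested only through the condition in which they were high.

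Among the receptors, ERBB3 gave opposite differences on probes for its 2 transcripts. ERBB3 is the kinase-impaired neuregulin receptor, and NM_001982 is the transcript of the full receptor, while NM_001005915 encodes a short form that ends in the extracellular part and is secreted. The NM_001982 probe (A_23_P349416) was at -2.03, -1.99, -2.12 and -2.32 on the sictrl arrays A1, M2, A2 and A3, and at -1.58, -1.23, -1.55 and -1.58 on the siUCA1 arrays in the same order. All siUCA1 arrays were above all sictrl arrays, with M2 the highest of them. The mean rose from -2.12 ± 0.15 to -1.49 ± 0.17 (SD, n = 4), a log2 difference of 0.63 (standard error 0.12, 95% confidence interval 0.36 to 0.90, 1.55-fold, adjusted p = 0.0138, limma). With 1 array left out, the difference stayed between 0.55 and 0.67 and was called in all 8 fits. The probe is dim, with intensities of 21.5 to 33.0 in sictrl and 35.7 to 50.3 in siUCA1, and it was detected above background on all 4 siUCA1 arrays but on 3 of the 4 sictrl arrays. It was thus tested only through siUCA1, the condition in which it was high, and its p and the fits without 1 array all run on a probe chosen in that way. With normexp background correction the difference was 0.21 and was not called (adjusted p = 0.438).

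The probe for the secreted form (NM_001005915, A_33_P3211569) was at -0.05, -0.22, -0.26 and 0.23 on the sictrl arrays and at -0.90, -0.38, -0.29 and -0.75 on the siUCA1 arrays. Here all siUCA1 arrays were below all sictrl arrays, although A2 of siUCA1 (-0.29) and A2 of sictrl (-0.26) nearly met. The difference of -0.51 (standard error 0.17, 95% confidence interval -0.89 to -0.12) did not pass the threshold (adjusted p = 0.0900, limma), and it passed with the slide row as a block (adjusted p = 0.0314). Without both sictrl A3 and siUCA1 A1 it was -0.30. Another ERBB3 probe (A_33_P3280471), also assigned to NM_001982, was not detected on any array, so that the difference rests on 1 dim probe.

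The difference between both ERBB3 probes was taken on each array, which removes any scaling of the array. NM_001982 minus NM_001005915 was -1.98, -1.77, -1.86 and -2.55 on the sictrl arrays and -0.68, -0.86, -1.26 and -0.83 on the siUCA1 arrays. The groups did not overlap, and the balance between the probes moved by 1.14 toward NM_001982 (exact permutation, two-sided p = 0.0286, the minimum for 4 against 4 arrays, and 0.0571 adjusted over the 4 pairs of probes compared in the family). In a limma fit of the same kind of difference over all 3505 further probes of all genes, an alternative added after the data were seen, ERBB3 was called (adjusted p = 0.0431), as were 1.03% of these probes. Both tests use the NM_001982 probe, which entered only through siUCA1, where it was high, so that the call cannot be set against that share. With normexp the difference between the probes moved by 0.52 (adjusted exact permutation p = 0.114), and without both sictrl A3 and siUCA1 A1 by 0.89, where 3 arrays against 3 cannot pass the exact test. Which further transcripts of a gene a probe binds was not tested.

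**Figure D2:**
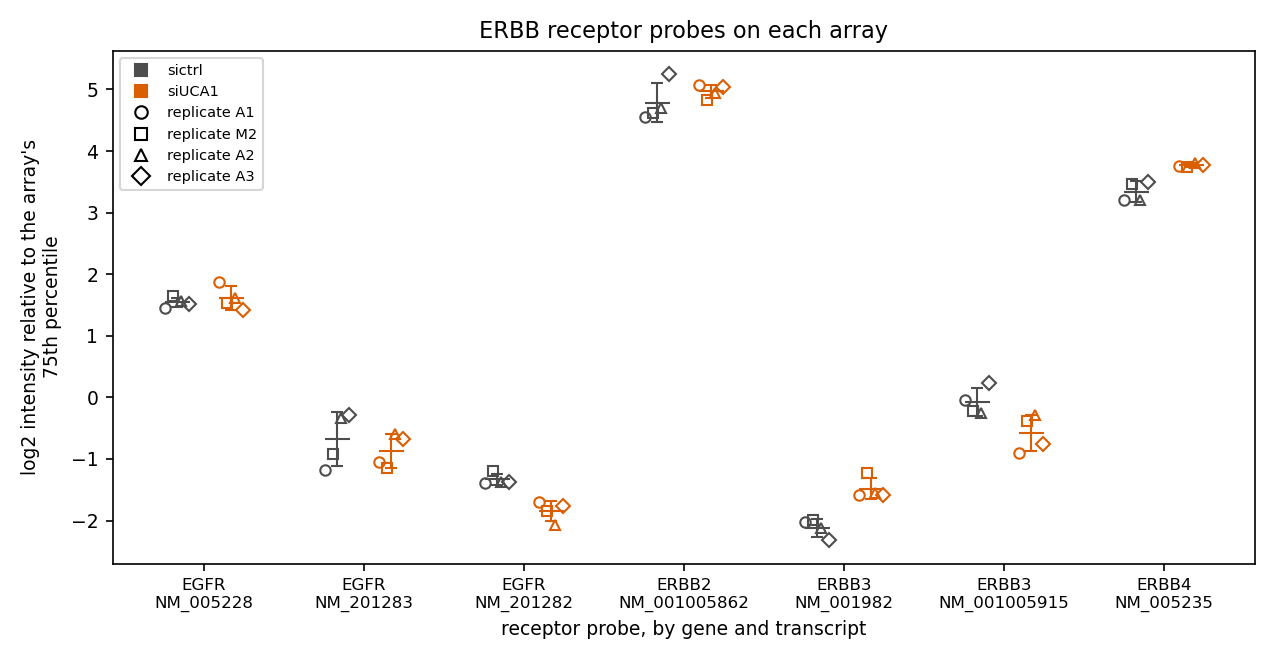
Log2 intensity of the 7 tested receptor probes relative to the 75th percentile of the array, for each array. Marker shapes are the replicates, bars the mean and SD of 4 arrays. The siUCA1 and sictrl means were -1.49 and -2.12 for the ERBB3 NM_001982 probe, which was called but was tested only through siUCA1, where it was high. They were -0.58 and -0.07 for the NM_001005915 probe, which was not called, while ERBB4 was higher and tightly grouped in siUCA1.

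ERBB4, the second neuregulin receptor and the one with its own active kinase, was higher in siUCA1 on its bright probe (NM_005235, A_32_P183765). Values were 3.20, 3.47, 3.20 and 3.50 on the sictrl arrays A1, M2, A2 and A3 and 3.76, 3.74, 3.81 and 3.78 on the siUCA1 arrays. The siUCA1 arrays lay within a narrow band above all sictrl arrays. The mean rose from 3.35 ± 0.17 to 3.77 ± 0.03 (SD, n = 4), by 0.43 (standard error 0.10, 95% confidence interval 0.19 to 0.66, 1.34-fold, adjusted p = 0.0332, limma). This call depends on most arrays. It was kept without sictrl A3 and without siUCA1 A1 and was lost without each of the other 6, with an adjusted p of 0.0861 without sictrl A1, 0.0585 without sictrl M2, 0.102 without sictrl A2, 0.0774 without siUCA1 M2, 0.0955 without siUCA1 A2 and 0.0750 without siUCA1 A3. The difference itself stayed between 0.38 and 0.48 in these fits. With all arrays, the call was also lost with median scaling (adjusted p = 0.459, limma), normexp (0.397) and no detection filter (0.444). It was lost as well with the slide row (0.0587) or the replicate names (0.0603) as a block. A second ERBB4 probe for the same transcript (A_33_P3211558) was not detected on any array.

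ERBB2, the ligandless partner receptor, was measured by 10 spots per array of 1 probe (A_23_P89249, assigned to NM_001005862). It was at 4.56, 4.62, 4.70 and 5.25 on the sictrl arrays and at 5.07, 4.83, 4.95 and 5.04 on the siUCA1 arrays, with intensities of 3150 to 4150. The groups overlapped through sictrl A3, which was the highest of all 8. The difference was 0.19 (standard error 0.16, 95% confidence interval -0.17 to 0.55, adjusted p = 0.493, limma). The repeated spots show how far the arrays can be read. On 6 arrays the 10 spots had an SD of 0.0329 to 0.0489, and on the arrays with the large surface trend the SD was 0.216 (sictrl A3, spots from 4.85 to 5.52) and 0.319 (siUCA1 A1, spots from 4.56 to 5.64). Without both arrays, sictrl lay between 4.56 and 4.70 and siUCA1 between 4.83 and 5.04, and the difference of 0.31 was called (adjusted p = 0.0454). No fit that left out only 1 array called ERBB2, with differences from 0.11 to 0.35.

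The genes around ERBB2 at 17q12 are often amplified together with it. Of 14 neighbors 9 were tested and 0 called (19048 probes tested in all, 11.5% called), with differences between -0.36 (GRB7, adjusted p = 0.0670, limma) and 0.30 (STARD3, adjusted p = 0.337). Their median was -0.11, against 0.03 over all tested genes.

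EGFR served as the reference and was measured by 3 probes. The probe for the full receptor (NM_005228, A_23_P215790) was at 1.45, 1.64, 1.56 and 1.52 on the sictrl arrays and at 1.87, 1.53, 1.62 and 1.42 on the siUCA1 arrays. The groups overlapped, and the difference was 0.07 (95% confidence interval -0.19 to 0.33, adjusted p = 0.748, limma), with a sign that turned in median scaling (-0.03). The other probes are assigned to transcripts of truncated, secreted forms. NM_201283 ranged from -1.18 to -0.29 in sictrl and from -1.15 to -0.59 in siUCA1, a difference of -0.19 (adjusted p = 0.645). NM_201282 (A_33_P3351955) was at -1.39, -1.19, -1.38 and -1.37 in sictrl and at -1.70, -1.85, -2.07 and -1.77 in siUCA1, all below sictrl, and fell by 0.52 (standard error 0.11, adjusted p = 0.0200, limma). This probe was well above background on all 4 sictrl and on 3 siUCA1 arrays, so that it was tested only through sictrl, the condition in which it was high. Its call was lost without sictrl M2 (adjusted p = 0.0653), sictrl A2 (0.0571), siUCA1 M2 (0.0577) or siUCA1 A2 (0.0568). With normexp the difference was -0.14 and was not called (adjusted p = 0.694).

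On each array, NM_201282 minus NM_005228 lay between -2.94 and -2.82 in sictrl and between -3.69 and -3.19 in siUCA1. The groups did not overlap, and the mean moved by -0.59 (two-sided exact permutation test, p = 0.0286, adjusted p = 0.0571), and the limma fit over all such differences did not call it (adjusted p = 0.0941). The NM_201282 probe entered this test only through sictrl, where it was high, and with normexp the mean moved by -0.24 (adjusted exact permutation p = 0.571). NM_201283 minus NM_005228 moved by -0.26 with overlapping groups (exact permutation p = 0.429, adjusted p = 0.571).

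**Figure D3:**
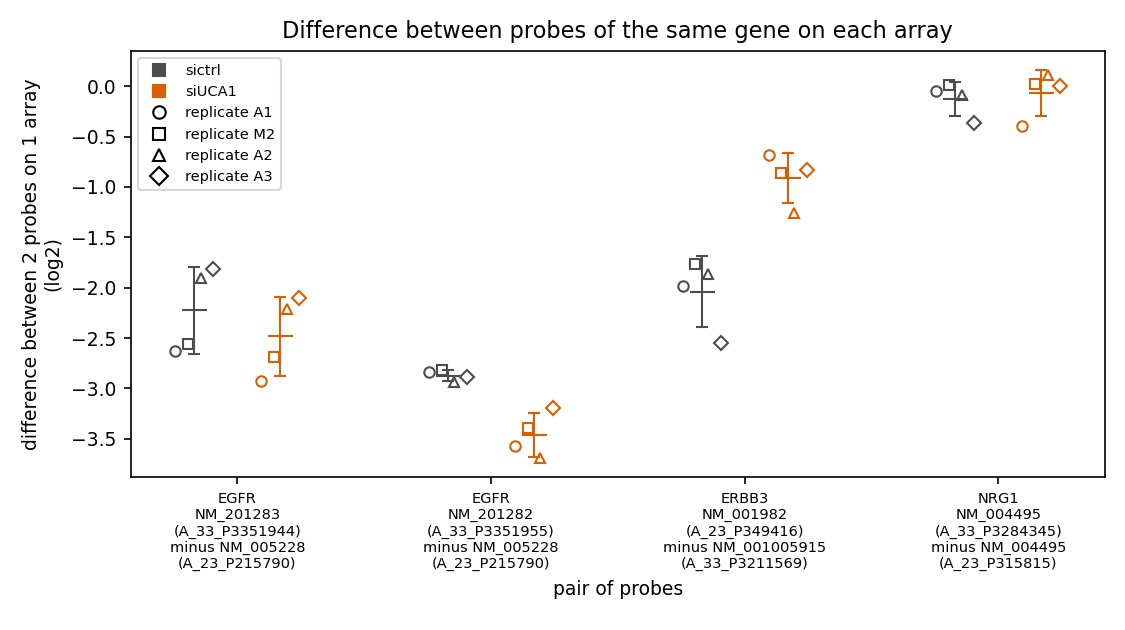
Difference between 2 probes of the same gene on the same array (log2), for the 4 pairs of the family. Marker shapes are the replicates, bars the mean and SD of 4 arrays. The ERBB3 pair moved by 1.14 and the EGFR NM_201282 pair by -0.59 without overlap of the conditions, and each holds a probe that was kept only through the condition in which it was high, while the NRG1 pair, both for NM_004495, overlapped.

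Among the ligands, the neuregulin NRG1 was detected on all arrays by 2 probes, both assigned to NM_004495. The first (A_23_P315815) was at 0.84, 1.22, 1.20 and 1.63 on the sictrl arrays and at 0.98, 0.76, 0.65 and 1.03 on the siUCA1 arrays. The second (A_33_P3284345) was at 0.79, 1.23, 1.11 and 1.26 and at 0.58, 0.78, 0.76 and 1.04. On both probes sictrl A1 was the lowest sictrl array and the groups overlapped. The differences were -0.37 (95% confidence interval -0.76 to 0.02, adjusted p = 0.201, limma) and -0.31 (95% confidence interval -0.63 to 0.01, adjusted p = 0.195). Neither passed the threshold. The difference between both probes moved by 0.06 (exact permutation p = 0.571, adjusted p = 0.571).

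TGFA, an EGFR ligand of epithelial cells, was at -0.43, -0.44, -0.23 and -0.10 in sictrl and at -0.66, -0.22, -0.32 and -0.55 in siUCA1 on its detected probe (A_33_P3408203, NM_003236). The groups overlapped and the difference was -0.14 (95% confidence interval -0.44 to 0.16, adjusted p = 0.551, limma). A second TGFA probe for the same transcript (A_23_P377291) was not detected on any array.

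HBEGF, which binds EGFR and ERBB4 and also serves as the receptor of diphtheria toxin, was the ligand closest to the detection limit. Its probe (NM_001945, A_24_P140608) was at -2.44, -2.18, -2.24 and -2.47 in sictrl, and 3 of these arrays had it well above background. In siUCA1 it was at -3.52, -3.31, -2.93 and -2.80, and well above background on none. The values did not overlap, but those of siUCA1 are at background. On siUCA1 A2 the lowest signal well above background (-2.11) was above every sictrl value of the probe. Taken against this lowest signal of each siUCA1 array, or against the probe itself where it was higher, HBEGF was 1.32-fold lower in siUCA1. This is not a firm bound, because the sictrl mean includes an array on which the probe was not well above background. On siUCA1 A3 the probe (-2.80) also exceeded the lowest such signal (-3.1) without being well above background. The probe was not among those tested, because it was not detected on all 4 arrays of either condition. With no detection filter its difference was -0.81 (adjusted p = 0.201, limma).

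The chromosome 4 ligands shown above by sequence were not detected. AREG, on 2 probes, lay between -5.18 and -4.12 in sictrl and between -4.91 and -2.73 in siUCA1. EREG lay between -5.30 and -4.28 in sictrl and between -5.32 and -4.31 in siUCA1, and BTC between -5.67 and -4.83 and between -5.43 and -4.22. The highest of these values was AREG on siUCA1 A1 (A_23_P259071), an intensity of 16.0 that was not well above background. The other EGF-family ligands EGF, EPGN, NRG3 and NRG4 were also not detected on any array, and NRG2 was detected on 1 sictrl and 2 siUCA1 arrays. A level below background is a bound and does not show that a transcript was absent.

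**Figure D4:**
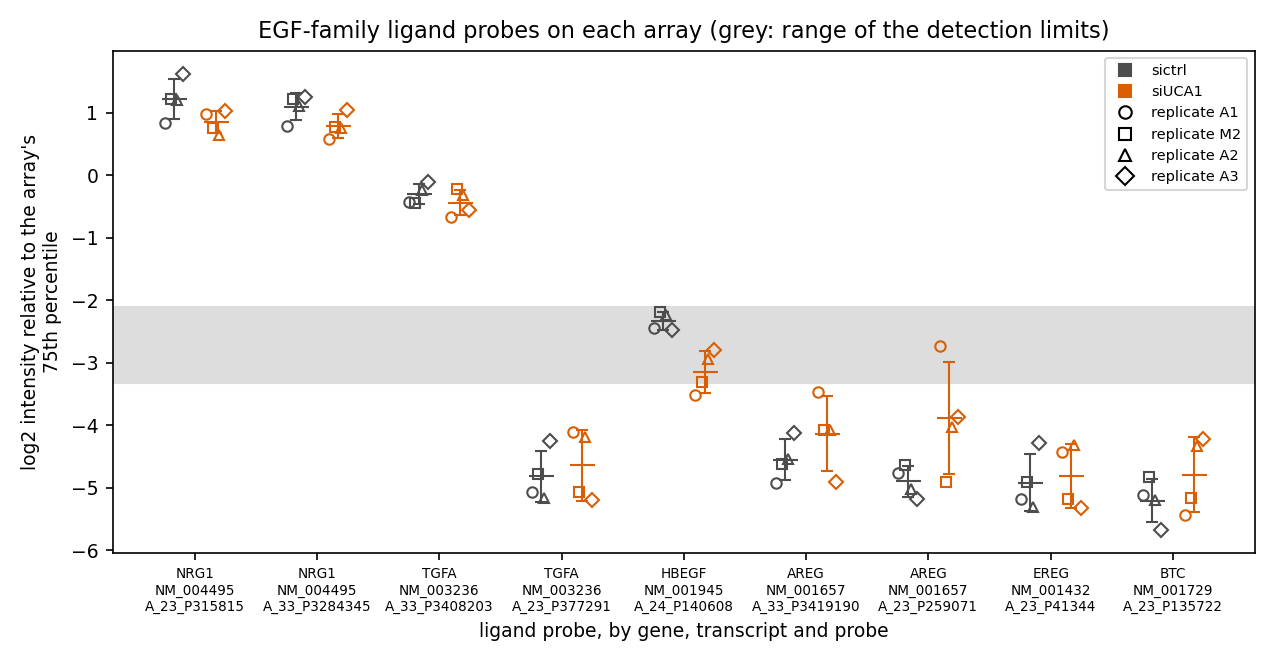
Log2 intensity of the 9 ligand probes relative to the 75th percentile of the array, for each array. Marker shapes are the replicates, bars the mean and SD of 4 arrays, and the grey band spans the lowest signals well above background on the 8 arrays (-3.32 to -2.11). NRG1 and 1 TGFA probe lie above the band, HBEGF in it or, on siUCA1 A1 (-3.52), below it, and the remaining probes below it apart from 1 AREG value at -2.73.

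The genes that release ligands and act on the receptors were taken from lists of known members and counted by the brightest tested probe of each gene. Of all 15457 genes counted in this way, 11.4% were called, 5.63% higher and 5.79% lower, and the counts in these lists of 6 to 22 tested genes are too small to set apart from these shares. Of 11 genes of ligand shedding, 6 were tested and none changed on its brightest probe, with differences from -0.53 to 0.54. ADAM17, the main sheddase of TGFA, AREG and HBEGF, differed by 0.19 (adjusted p = 0.227, limma). After the values were seen, 2 further probes of the list were found to pass, ADAM10 with 0.65 (adjusted p = 0.0426) and ADAM15 with -0.33 (adjusted p = 0.0480), and the brightest probes of these genes had differences of 0.54 (adjusted p = 0.0829) and -0.34 (adjusted p = 0.127). The calls of the further probes were kept in 2 (ADAM10) and 1 (ADAM15) of the 8 fits without 1 array, and were lost with median scaling, normexp, no detection filter and the slide row as a block (adjusted p = 0.0694 and 0.0789). With the replicate names as a block, the ADAM15 call was lost (adjusted p = 0.0871, limma) and the ADAM10 call was kept (adjusted p = 0.0331).

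Receptor attenuation, the group of ubiquitin ligases, phosphatases and inhibitors that switch the receptors off, had 17 of 19 genes tested and 1 lower (5.79% of all genes were). SH3KBP1, the adaptor CIN85 that links CBL to receptor endocytosis, was between 2.65 and 2.88 in sictrl and between 2.28 and 2.46 in siUCA1. It fell by 0.39 (adjusted p = 0.0328, limma), and a second SH3KBP1 probe, named after its values were seen, fell by 0.75 (adjusted p = 0.0446). On the second probe the groups overlapped, with siUCA1 A1 and sictrl A1 both at 1.14, and its call was not followed in the other settings. The ubiquitin ligase of ERBB3, RNF41, differed by -0.05 (adjusted p = 0.783), and the feedback inhibitor ERRFI1 by 0.38 (adjusted p = 0.189). The list median was 0.17, against 0.03 over all tested genes.

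Of 26 adaptors and direct effectors, 22 were tested, with 1 higher and 1 lower (11.4% of all genes were called) and a median of 0.10, against 0.03 over all tested genes. RASA1, a GTPase activating protein that switches RAS off, was between -0.15 and -0.08 in sictrl and between 0.41 and 0.61 in siUCA1, a rise of 0.61 (adjusted p = 0.00503, limma). SHC1, the adaptor that carries phosphorylated receptors to GRB2 and RAS, was between 4.57 and 4.74 in sictrl and between 4.22 and 4.31 in siUCA1, and fell by 0.37 (adjusted p = 0.0281) over 10 spots per array. Neither gene's groups overlapped. A further probe of the adaptor GRB10, named after its values were seen, fell by 0.48 (adjusted p = 0.0200), and the brightest probe of GRB10 had a difference of -0.34 (adjusted p = 0.0515). The call of the further GRB10 probe was not followed in the other settings.

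All 9 receptor partners were tested and 2 were lower (5.79% of all genes were), with a median of -0.16. MUC1, a transmembrane mucin that binds ERBB receptors at the cell surface, was at 2.12, 1.54, 1.77 and 2.76 in sictrl and at 0.58, 0.14, 0.07 and 0.46 in siUCA1. It fell by 1.74 (3.33-fold, 95% confidence interval -2.31 to -1.16, adjusted p = 0.00521, limma), more than any tested probe of the family. CDC37, the cochaperone that brings kinases to HSP90, fell by 0.46 (adjusted p = 0.0314), a call lost with the replicate names as a block (adjusted p = 0.0629, limma). The chaperones HSP90AA1 and HSP90AB1, on which ERBB2 protein depends, differed by -0.16 (adjusted p = 0.380) and -0.19 (adjusted p = 0.250). The calls of RASA1 and MUC1 were kept in all 8 fits without 1 array, whereas those of SHC1, SH3KBP1 and CDC37 were kept in 2, 3 and 3 of them. Of these 5 genes, MUC1 alone stayed called with median scaling (-1.83) and with normexp (-1.36), and none did with no detection filter (adjusted p = 0.161 for RASA1 and 0.0655 for MUC1). SHC1 and SH3KBP1 also lost their calls with the slide row as a block (adjusted p = 0.0530 and 0.0534).

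**Figure D5:**
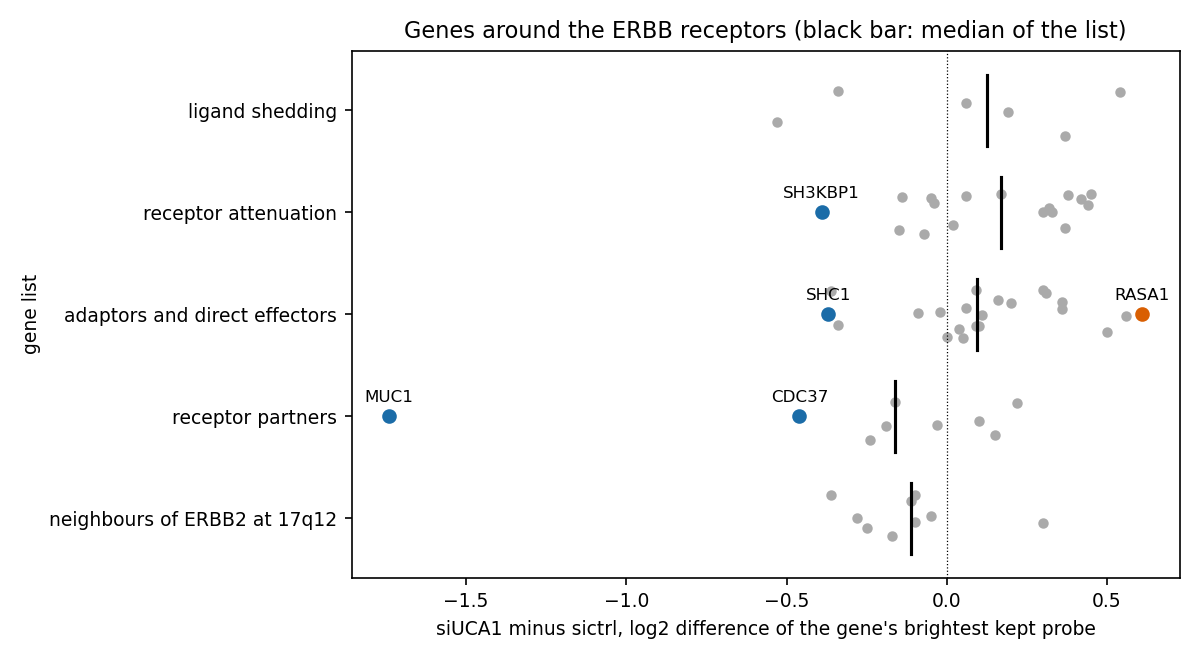
Log2 difference (siUCA1 minus sictrl) of the brightest kept probe of each tested gene in 5 lists around the ERBB receptors. Named points had an adjusted p under 0.05, grey points did not, and black bars are list medians. MUC1 (-1.74) stands far to the left of the other genes, and the list medians lie between -0.16 and 0.17.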

How the data were processed

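The authors deposited the Agilent Feature Extraction 10.7.3.1 output of 8 one-color arrays (labels name the version), with a background-subtracted and detrended intensity per spot, not normalized between arrays. The deposited table of the series held the same intensity values (largest relative difference 0). The log2 of each intensity was taken and the array's 75th percentile over non-control spots subtracted, outlier spots were dropped and spots of 1 probe averaged. Probes well above background (0.5 of a probe's spots or more) on all 4 arrays of at least 1 condition were kept. RefSeq annotation of GRCh38.p14 gave a symbol to 31104 probes by their accession. The comparison of conditions used R 4.3.3 with version 1.17.8 of data.table, and the functions lmFit and eBayes of limma 3.58.1. Single probes and differences between probes of 1 gene were compared by exact permutation (two-sided), with 0.0286 as the lowest possible p. Plots were drawn with matplotlib 3.10.9 in Python 3.11.15, and the fit was tested on simulated data.

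The family members and gene lists were chosen with earlier results of these data known. Named genes are UCA1, every probe of the family, the called genes of each list (at most 5 per list), and undetected genes of lists of at most 5 genes, and other list genes are examples chosen after their values were seen. Replicate names were not taken as pairs, since the labels do not say what the names stand for. Same-named arrays deviated together with correlations of 0.02, 0.27, 0.22 and 0.10 (A1, M2, A2 and A3). The siUCA1 arrays M2, A2 and A3 correlated best with the sictrl array of their own name, so that pairing was not excluded. Alternatives in normalization, background, filter, blocks, weights and left-out arrays are given below, and 2 were added after seeing the data, the limma fit of probe differences and the median over spots.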

Additional observations from a re-analysis of the deposited data

Results flagged for a closer look

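Within each condition, 62 sets of 4 arrays were searched for an array whose gap to the nearest other array, divided by the range of the 4, was above Dixon's critical value. Such gaps were found in 6 sets, and chance gives about 5% of sets. For ERBB3 NM_001982, siUCA1 M2 was at -1.23 while the others lay between -1.58 and -1.55 (ratio 0.911). The difference was called without this array too. That fit gives no support, because the probe was kept only through siUCA1, where it was high, and the filter was not redone. For EGFR NM_201282, sictrl M2 was at -1.19 while the others lay between -1.39 and -1.37 (ratio 0.913), and the call was lost without it (adjusted p = 0.0653, limma). The SD over the 10 ERBB2 spots stood apart on sictrl A3 (0.216, ratio 0.991) and on siUCA1 A1 (0.319, ratio 0.944). The surface trend stood apart on the same arrays, at 0.321 (ratio 0.944) and 0.287 (ratio 0.903).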

How the results depend on the processing

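The number of called probes was 646 with median scaling, 436 with normexp, 87 of 58201 with no detection filter, 5723 with array weights and 4764 without both sictrl A3 and siUCA1 A1, and 958 to 2806 with 1 array left out (958 to 1352 without sictrl A1, M2 or A2 or siUCA1 M2, A2 or A3). Family probes called were 0, 0, 0, 4 and 4 in these settings, 1 with detection on all 8 arrays, where 8 of them were tested, 1 with 1 probe per gene, where 6 were tested, and 1 to 3 with 1 array left out (1 without sictrl M2 or A2 or siUCA1 M2 or A2). ERBB3 NM_001982 was not called with median scaling (0.53), normexp (0.21) or no filter (0.63). Nor was EGFR NM_201282 (-0.61, -0.14 and -0.52) or ERBB4 (0.33, 0.35 and 0.43). SOX17 and CD14 were not called in these 3 settings either. ERBB4 also lost its call with the slide row as a block (0.43, adjusted p = 0.0587). With the replicate names as a block, 2057 probes and 2 family probes were called, ERBB4 was 0.43 (adjusted p = 0.0603), the adjusted p of CDC37 was 0.0629 and that of the ADAM15 probe 0.0871, and siUCA1 A1 was the array that did not correlate best with its own name. Calls gained were ERBB3 NM_001005915 with the slide row block (-0.51), NRG1 A_23_P315815 with array weights (-0.39) and ERBB2 without both arrays (0.31). Signs turned for EGFR NM_005228 (-0.03 with median scaling and without both arrays, -0.02 to 0.13 with 1 array left out), and without both arrays for EGFR NM_201283 (0.0035), TGFA (0.0032) and the EGFR NM_201283 probe difference (0.03). With 1 array left out, EGFR NM_201282 ranged from -0.57 to -0.44, ERBB4 from 0.38 to 0.48, and the NRG1 probe difference from -0.02 to 0.17. The ERBB3 probe difference of 1.14 was called only by limma. Scaling between arrays cancels in these differences, while background correction does not (0.52 for ERBB3 and -0.24 for EGFR NM_201282 with normexp), and no block was fitted to them. The causes of these changes were not tested. Dim probes (ERBB3 NM_001982, EGFR NM_201282, HBEGF) are limited by background, and undetected ligands have only bounds.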
